A study of Mus musculus with 24 samples.

Results

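Wild-type macrophages given lysophosphatidic acid (LPA) were compared directly with wild-type macrophages given lipopolysaccharide (LPS). The comparison took 8 of the 24 RNA libraries of the study, namely the 4 with LPA and the 4 with LPS, and each gene was then related to the 4 libraries of untreated wild-type cells. The cells were macrophages grown from the bone marrow of male C57BL/6 mice over 7 days with the growth factor M-CSF. The untreated wild-type group (WT Cont) received nothing on day 7, the second group (WT LPA) 10 µM LPA for 4 h, and the third (WT LPS) 10 ng/mL LPS for 4 h. The same 3 conditions in GPR35-deficient macrophages (KO Cont, KO LPA and KO LPS), with 4 libraries each, served as a second set of cells. Each stimulus was given at a single dose and a single time. The labels do not say whether the 4 replicates of a group came from separate mice or cultures, so p-values measure the spread between these libraries, which may be technical.

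LPA is a small lipid mediator that acts on cells through G protein-coupled receptors, and LPS is a component of the outer membrane of Gram-negative bacteria that acts through the receptor TLR4. In macrophages TLR4 signalling activates NF-kB and interferon regulatory factors, which drive cytokine, chemokine and interferon-stimulated genes, and it shifts the cells towards glycolysis. G protein-coupled receptors act through second messengers, small GTPases and kinase cascades, and GPR35 has been described as a receptor for LPA.

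The libraries held 32 to 46.7 M counts in the 12 wild-type and 15.2 to 21.5 M in the 12 KO libraries, and the sequencing lanes named in the labels went with the genotype. Normalisation factors (TMM, which equalises the bulk of the genes between libraries) were 0.739 to 0.778 with LPS and 1.06 to 1.12 with LPA in wild-type cells. Scaling by library totals alone therefore moved the median difference of all genes between LPA and LPS by 0.50 on the log2 scale. Values below are on the TMM scale, as CPM (counts scaled to a common library size) or as log2 differences ± SE. A direction that the other scaling turned is named beside it or in the last section, on processing. Among the 4 LPA libraries, replicate 3 lay nearest to the untreated cells. Over the 324 genes that LPA changed at least 2-fold, the median log2 distance from the untreated mean was 1.47, 1.57, 0.71 and 1.16 in LPA replicates 1 to 4. Gpr35, which checks the genotype labels, averaged 2.6 CPM in untreated wild-type and 0.133 CPM in untreated KO cells.

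The direct contrast separated most of the transcriptome. Of 11590 genes, 9148 differed between LPA and LPS (78.9%, edgeR quasi-likelihood test, Benjamini-Hochberg adjusted p below 0.05, 4 libraries per group). LPA was higher in 4769 (41.1%) and LPS in 4379 (37.8%), and 3075 differed at least 2-fold (26.5%, 1834 higher with LPA and 1241 higher with LPS). In 8274 genes (71.4%) the 4 LPA libraries did not overlap the 4 LPS libraries; for LPS against untreated cells the share was 80.8%. Against untreated cells LPA changed 5165 genes (44.6%) and LPS 9759 (84.2%), of which 324 (2.8%) and 4124 (35.6%) changed at least 2-fold (516 for LPA without WT LPA 3). With library totals alone, 8087 genes were higher and 1979 lower with LPA, so 80.3% of the called genes were higher with LPA against 52.1% on the TMM scale.

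In most of these genes the LPS group lay farther from untreated cells than the LPA group. In 2095 genes both stimuli raised expression and LPS was higher, and in 1911 both lowered it and LPA was higher. A further 1951 genes were raised by LPS and 2483 lowered by LPS with no change called for LPA. The largest differences towards LPA were of this last kind or were genes that both stimuli lowered. Angptl4 (chromosome 17, 33774900 to 33781575, GRCm38.p6), which encodes a secreted inhibitor of lipoprotein lipase, was 9.48, 5.11, 9.77 and 6.91 CPM with LPA and 0.035, 0, 0.0374 and 0.141 CPM (1, 0, 1 and 4 counts) with LPS, after 11.4 to 12.7 CPM in untreated cells. The LPS libraries all lay far below the LPA libraries, by a log2 difference of 7.06 ± 0.40 (edgeR adjusted p = 5.4e-13). Cxcr4 (chromosome 1, 128588199 to 128592299), the receptor for the chemokine CXCL12, was 65.5, 59.8, 169 and 111 CPM with LPA and 2.56, 3.37, 3.59 and 4.26 CPM with LPS, a 29.3-fold difference (log2 4.87 ± 0.29, edgeR adjusted p = 4.2e-12). Its LPA libraries varied among themselves, with replicate 3 within the untreated range of 144 to 215 CPM. Gpr183, a receptor for oxysterols, was 44-fold higher with LPA than with LPS (log2 5.46 ± 0.19), Cnr2, the peripheral cannabinoid receptor, 42.1-fold and Gpr34, a receptor for lysophosphatidylserine, 23.3-fold. St6gal1, a sialyltransferase, was 27.5-fold and Lpin1, a phosphatidate phosphatase, 24.2-fold higher. LPA did not raise any of these 7 genes over untreated cells: 6 fell with LPA, by 0.64 (Angptl4) to 1.60 (Gpr34) on the log2 scale, and no change was called for Gpr183 (-0.07 ± 0.12, edgeR adjusted p = 0.683).

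Of the 10 largest differences towards LPS, 4 are described. Edn1 (chromosome 13, 42301476 to 42307990), the precursor of the peptide endothelin-1, was 0.342, 0.277, 0 and 0.174 CPM with LPA and 19.9, 22.9, 33.6 and 17.3 CPM with LPS, 112-fold higher with LPS (edgeR adjusted p = 1.6e-13). Ptgs2, the inducible cyclooxygenase, was 22.7, 15.8, 8.57 and 10.1 CPM with LPA and 959, 935, 859 and 691 CPM with LPS, 59.9-fold higher with LPS. Lipg, an endothelial-type lipase, was 45.9-fold and the cytokine gene Il6 42.3-fold higher with LPS. Lipg also rose with LPA over untreated cells (2.13 ± 0.31, edgeR adjusted p = 2.6e-05), whereas no LPA change of Il6 was called (0.59 ± 0.46, edgeR adjusted p = 0.305).

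**Figure D1:**
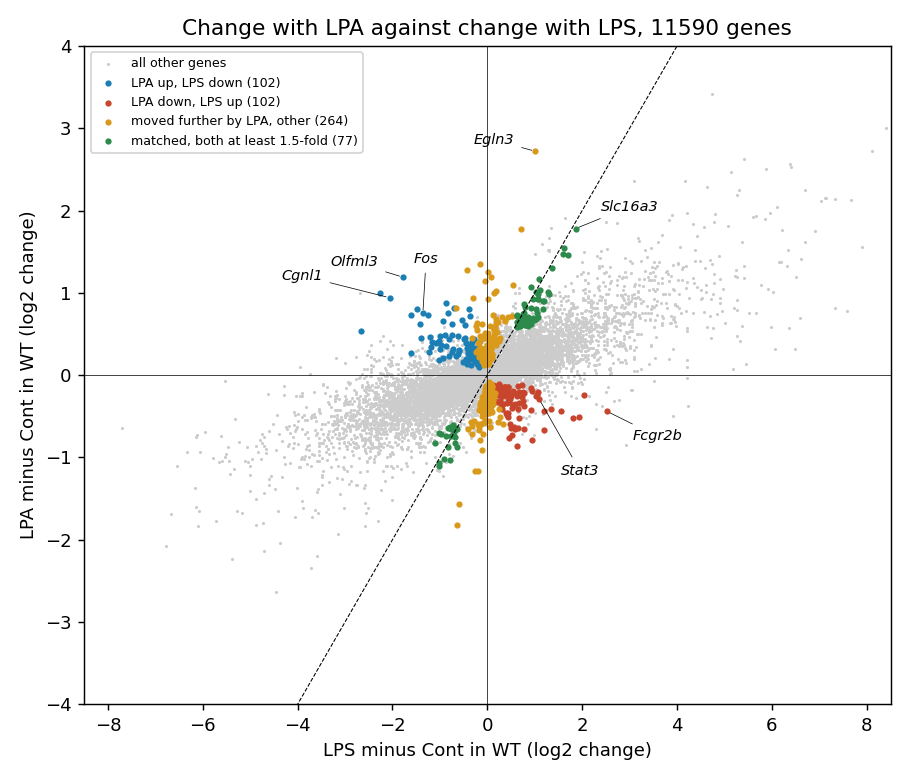
Change with LPA (vertical axis) against change with LPS (horizontal axis), both as log2 change from untreated wild-type cells, for each of 11590 genes, with the classes of genes in colour. The dashed line marks equal changes; blue and red points are the 102 genes each way with opposite changes, and green points the 55 matched rises and 22 matched falls of at least 1.5-fold. Both axes share the 4 untreated libraries.

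Against this background the genes were sorted by their 3 calls (LPA against untreated, LPS against untreated, and LPA against LPS). LPA exceeded LPS as an inducer in 235 genes (2.03% of those tested): the gene rose with LPA and was higher with LPA than with LPS. Of these, 12 also rose with LPS (0.104%), 121 had no change called with LPS (1.04%), and 102 fell with LPS (0.88%). LPA exceeded LPS as a repressor in 233 genes (2.01%), of which 10 also fell with LPS (0.0863%), 121 had no LPS change called (1.04%), and 102 rose with LPS (0.88%). Most of these LPA changes were small, with medians of 0.32 for the stronger rises and -0.26 for the stronger falls. With LPA 43 of the 235 rises and 28 of the 233 falls were at least 1.5-fold, and 12 and 4 at least 2-fold. A matched response was defined by equivalence and not by a missed test: both stimuli changed the gene in the same direction and the 95% confidence interval of the direct difference lay within 1.5-fold either way. By that rule 801 genes were matched rises (6.91%) and 505 matched falls (4.36%). Most matched changes were small, and in 55 of the rises and 22 of the falls both stimuli changed the gene at least 1.5-fold. The sizes of these classes moved with single libraries. Without LPA replicate 3 the stronger rises numbered 349, the stronger falls 345 and the matched rises 1075, and without LPA replicate 2 they numbered 153, 142 and 497. The rises with an opposite LPS fall numbered 63 without WT Cont 3, and the falls with an opposite LPS rise 65 without WT LPA 1 and 165 without WT LPA 3. With the replicate number as a block over the wild-type libraries, stronger rises numbered 303 and stronger falls 274. The rises and falls shared by both stimuli but stronger with LPA then numbered 26 and 18 in place of 12 and 10. Rises with an opposite LPS fall numbered 146, and falls with an opposite LPS rise 126, in place of 102 each.

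The scaling also decided much of the membership. Under library totals 149 of the 235 stronger rises and 57 of the 233 stronger falls kept their class, as did 57 of the 102 rises with an opposite LPS fall and 20 of the 102 falls with an opposite LPS rise. Of the matched genes 72 of 801 rises and 33 of 505 falls kept their class. A match means within 1.5-fold on the TMM scale and not equality: 497 of the 801 matched rises and 288 of the 505 matched falls were also called different between LPA and LPS. Genes matched on both scales are named as such.

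Some genes were moved in opposite directions by the stimuli, mostly with a small LPA change (median 0.29 for rises and -0.24 for falls). Of the 102 rises with an opposite LPS fall, 13 changed at least 1.5-fold with both stimuli and 2 at least 2-fold. Of the 102 falls with an opposite LPS rise, 5 and 0 did. The genes named below were mostly chosen for the size of their changes. Olfml3 (chromosome 3, 103735394 to 103738001), which encodes a secreted olfactomedin-like glycoprotein, was 7.24, 5.2, 5.02 and 11.7 CPM in untreated cells, 17.2, 15.8, 17.8 and 15.4 CPM with LPA and 2, 2.15, 1.61 and 2.71 CPM with LPS. Every LPA library lay above and every LPS library below all untreated libraries. The LPA change was 1.19 ± 0.21 (edgeR adjusted p = 1.6e-04), the LPS change -1.78 ± 0.24 (edgeR adjusted p = 6.6e-07), and the direct difference 7.79-fold (log2 2.96 ± 0.24). Cgnl1 (chromosome 9, 71626507 to 71809300), a protein of cell junctions, was 8.81, 8.93, 9.97 and 10.3 CPM in untreated cells, 21.2, 20.4, 16.7 and 14.6 CPM with LPA and 2.17, 2.07, 2.54 and 2.29 CPM with LPS. Here too the 3 groups did not overlap, and LPA exceeded LPS 8.04-fold (log2 3.01 ± 0.13, edgeR adjusted p = 3.5e-15).

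Fos (chromosome 12, 85473890 to 85477274), a subunit of the transcription factor AP-1 and an immediate-early gene, followed the same order. It was 151, 151, 131 and 143 CPM in untreated cells, 292, 240, 214 and 224 CPM with LPA and 53.9, 55.2, 53.8 and 61.4 CPM with LPS. At 4 h it was thus above the untreated range with LPA (0.75 ± 0.10) and below it with LPS (-1.36 ± 0.11), a 4.32-fold difference between the stimuli (edgeR adjusted p = 7.6e-14). Adam8, a membrane metalloprotease of leukocytes, was 942, 883, 577 and 615 CPM with LPA and 182, 272, 287 and 266 CPM with LPS, on either side of the 422 to 463 CPM of untreated cells. Cd276, which encodes the immune checkpoint ligand B7-H3, was 3.36-fold and Chst3, a chondroitin sulfotransferase, 4.84-fold higher with LPA than with LPS, and both rose with LPA (0.88 ± 0.15 and 0.80 ± 0.15) and fell with LPS (-0.87 ± 0.17 and -1.48 ± 0.18). These 6 genes kept both directions under library totals, where the LPA rise was 0.69 (Fos) to 1.13 (Olfml3) and the LPS fall -1.38 (Adam8) to -2.62 (Cgnl1). The chemokine gene Cxcl14, chosen after its values were seen because it was the 1 chemokine higher with LPA, was 4.92, 2.89, 4.17 and 4.45 CPM with LPA and 0.946, 1.37, 1.27 and 1.55 CPM with LPS (log2 1.68 ± 0.20, edgeR adjusted p = 7.2e-08). Under library totals its LPA change was 0.41 and was not called, and its LPA libraries overlapped the untreated range of 2.2 to 3.88 CPM. The LPA rise of Cxcl14 (0.46 ± 0.18, edgeR adjusted p = 0.0389) was called in 6 of 12 fits that left out 1 library, and not without WT Cont 1, 2 or 3 or WT LPA 1, 3 or 4 (0.34 to 0.61 over the 12 fits).

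In the other direction, Fcgr2b (chromosome 1, 170960558 to 170976071), the inhibitory receptor for IgG, was 100, 121, 148 and 126 CPM in untreated cells, 79.5, 102, 101 and 82.7 CPM with LPA and 792, 757, 782 and 520 CPM with LPS. LPS exceeded LPA 7.81-fold (log2 -2.97 ± 0.18, edgeR adjusted p = 2.4e-12), and 2 LPA libraries lay just above the lowest untreated library. The fall of Fcgr2b with LPA (-0.44 ± 0.17, edgeR adjusted p = 0.038) was called in 7 of 12 fits that left out 1 library, and not without WT LPA 1 or 4 or WT Cont 2, 3 or 4 (-0.53 to -0.35 over the 12 fits). Arhgef3, a guanine nucleotide exchange factor, was 41.2, 46.3, 53.5 and 44.1 CPM with LPA and 226, 229, 264 and 209 CPM with LPS, against 59.1 to 74.4 CPM untreated. Arid5a, an RNA-binding protein that stabilises inflammatory messages, was 4-fold higher with LPS than with LPA, having fallen with LPA (-0.44 ± 0.12) and risen with LPS (1.56 ± 0.12).

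Stat3 (chromosome 11, 100886806 to 100939594), the transcription factor downstream of IL-6 and IL-10, was 197, 201, 204 and 197 CPM in untreated cells, 177, 160, 163 and 153 CPM with LPA and 420, 415, 452 and 418 CPM with LPS. The shift with LPA was small but outside the untreated range in all 4 libraries (-0.29 ± 0.06, edgeR adjusted p = 3.0e-04), and LPS exceeded LPA 2.61-fold. Fcgr2b, Arhgef3, Arid5a and Stat3 kept both directions under library totals. St3gal4 (chromosome 9, 35046576 to 35116864), another sialyltransferase, was 43.2, 45.2, 48.7 and 47.8 CPM untreated, 27.3, 27.4, 32.9 and 31.2 CPM with LPA and 68.9, 74.1, 81.9 and 65.6 CPM with LPS. Kctd12, an auxiliary subunit of GABA-B receptors, fell by 0.66 with LPA and rose by 0.58 ± 0.14 with LPS. Atp10d, which RefSeq lists as a transcribed pseudogene in this assembly, fell by 0.65 and rose by 0.77 ± 0.11, and Frmd6, a Hippo pathway scaffold, fell by 0.73 and rose by 0.53 ± 0.12. For these 4 genes the fall with LPA held on both scales, but under library totals no LPS rise was called (0.22 for Atp10d, 0.09 for St3gal4, 0.02 for Kctd12 and -0.03 for Frmd6). The endosomal RNA sensor gene Tlr7, chosen after its values were seen, and Il4ra, the IL-4 receptor chain, likewise fell with LPA (-0.35 ± 0.07 and -0.34 ± 0.06) and rose with LPS (0.59 ± 0.07 and 0.42 ± 0.06), with LPS changes of 0.03 and -0.14 under library totals.

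**Figure D2:**
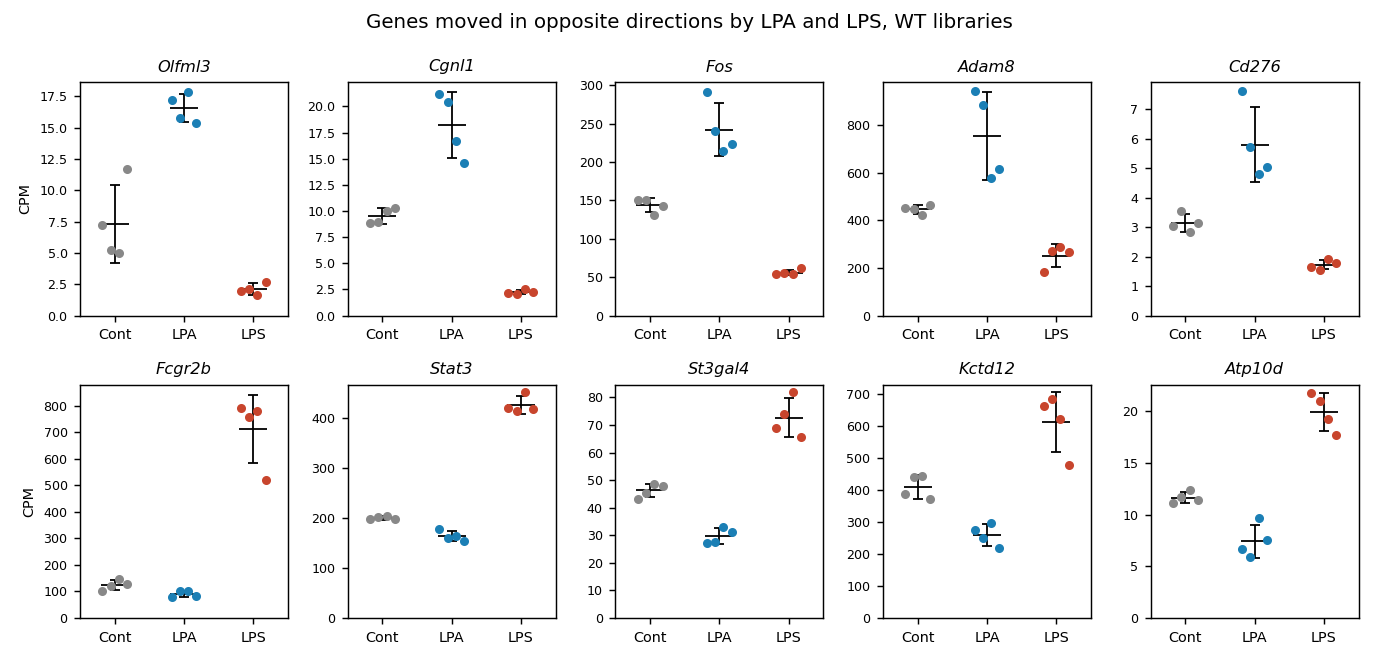
CPM in every library (points), group mean (line) and SD (error bar) for 10 genes that LPA and LPS moved in opposite directions, in untreated (Cont), LPA and LPS wild-type cells; each vertical axis starts at 0. In Olfml3, Cgnl1 and Fos the LPA libraries lie above and the LPS libraries below the untreated ones, and in Stat3 and St3gal4 the order is reversed.

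Among the matched rises, the largest change with LPA was that of Slc16a3. Slc16a3 (chromosome 11, 120948484 to 120959000), the lactate exporter MCT4, was 17.4, 21.4, 21.8 and 18.5 CPM in untreated cells, 75.5, 93.8, 44.9 and 57.9 CPM with LPA and 103, 68.8, 55.8 and 59.8 CPM with LPS. The LPA and LPS libraries overlapped, and the direct difference was -0.08 ± 0.19 with a 95% interval of -0.48 to 0.32 (edgeR adjusted p = 0.712). Both changes from untreated were large, 1.78 ± 0.20 with LPA and 1.86 ± 0.20 with LPS. Jag1 (chromosome 2, 137081451 to 137116520), a Notch ligand, was 65.2, 65.6, 36.9 and 31.5 CPM with LPA and 44.1, 52.7, 62.1 and 49.7 CPM with LPS, from 16.4 to 17.8 CPM. Its direct difference was -0.06 ± 0.17 (interval -0.42 to 0.29). Pfkl, the liver-type phosphofructokinase, was 103, 121, 65 and 100 CPM with LPA and 146, 99.1, 81.5 and 95.7 CPM with LPS (difference -0.12 ± 0.16, interval -0.46 to 0.22). In both genes the spread among the 4 libraries of a stimulus was wider than the gap between the stimuli.

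Srxn1 (chromosome 2, 152105524 to 152111376), which repairs oxidised peroxiredoxins, was 340, 366, 213 and 269 CPM with LPA and 279, 257, 260 and 322 CPM with LPS, from 121 to 141 CPM (difference 0.09 ± 0.14, interval -0.21 to 0.39). Sdc1, a heparan sulfate proteoglycan, differed by -0.07 ± 0.19 (interval -0.47 to 0.34) after rises of 1.30 ± 0.20 with LPA and 1.37 ± 0.20 with LPS. Col19a1, a collagen gene, differed by -0.23 ± 0.13 (interval -0.51 to 0.04), and Pf4, the platelet factor 4 chemokine, by -0.14 ± 0.11 (interval -0.36 to 0.08). A direct difference of Col19a1 was called in the fits without WT LPA 2 or WT LPS 3 (-0.33 to -0.14 over 12 fits). Under library totals the point estimate lay on the LPA side in all 7 genes (0.26 for Col19a1, 0.36 for Pf4, 0.38 for Pfkl, 0.41 for Slc16a3, 0.43 for Jag1 and Sdc1, 0.58 for Srxn1), and Jag1, Pfkl, Sdc1, Srxn1 and Pf4 then counted as stronger rises with LPA. Col19a1 and Pf4 were matched on both scales, and Col19a1 was not a stronger rise on either.

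Among the matched falls 4 genes are described. Ahr (chromosome 12, 35497979 to 35534989), the aryl hydrocarbon receptor, was 10.2, 11.1, 12.9 and 12.2 CPM in untreated cells, 5.06, 4.73, 8.1 and 5 CPM with LPA and 6.03, 6.33, 6.43 and 5.95 CPM with LPS. Apart from LPA replicate 3, the LPA libraries lay just below the LPS libraries. The direct difference of Ahr was -0.12 ± 0.14 (interval -0.41 to 0.18), and without LPA replicate 3 it was -0.33 and was called. Fcgr3 (chromosome 1, 171051169 to 171065915), an activating IgG receptor, was 390, 350, 516 and 414 CPM with LPA and 460, 499, 551 and 429 CPM with LPS, from 660 to 812 CPM (difference -0.22 ± 0.13, interval -0.49 to 0.06). Selenop, a secreted selenium carrier, differed by -0.06 ± 0.12 after falls of 0.88 with LPA and 0.82 with LPS on the log2 scale. Arhgap15, a Rac GTPase-activating protein, differed by -0.24 ± 0.13 (interval -0.51 to 0.02). Fcgr3 and Arhgap15 were likewise called without LPA replicate 3 (-0.33 and -0.40), and with the replicate block (-0.22 and -0.26). Under library totals the 4 differences lay on the other side of 0 (0.26 for Arhgap15, 0.29 for Fcgr3, 0.39 for Ahr and 0.45 for Selenop), and Fcgr3 and Arhgap15 remained matched. Of the 2 IgG receptor genes named, Fcgr3 fell with both stimuli and Fcgr2b rose with LPS and fell with LPA.

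**Figure D3:**
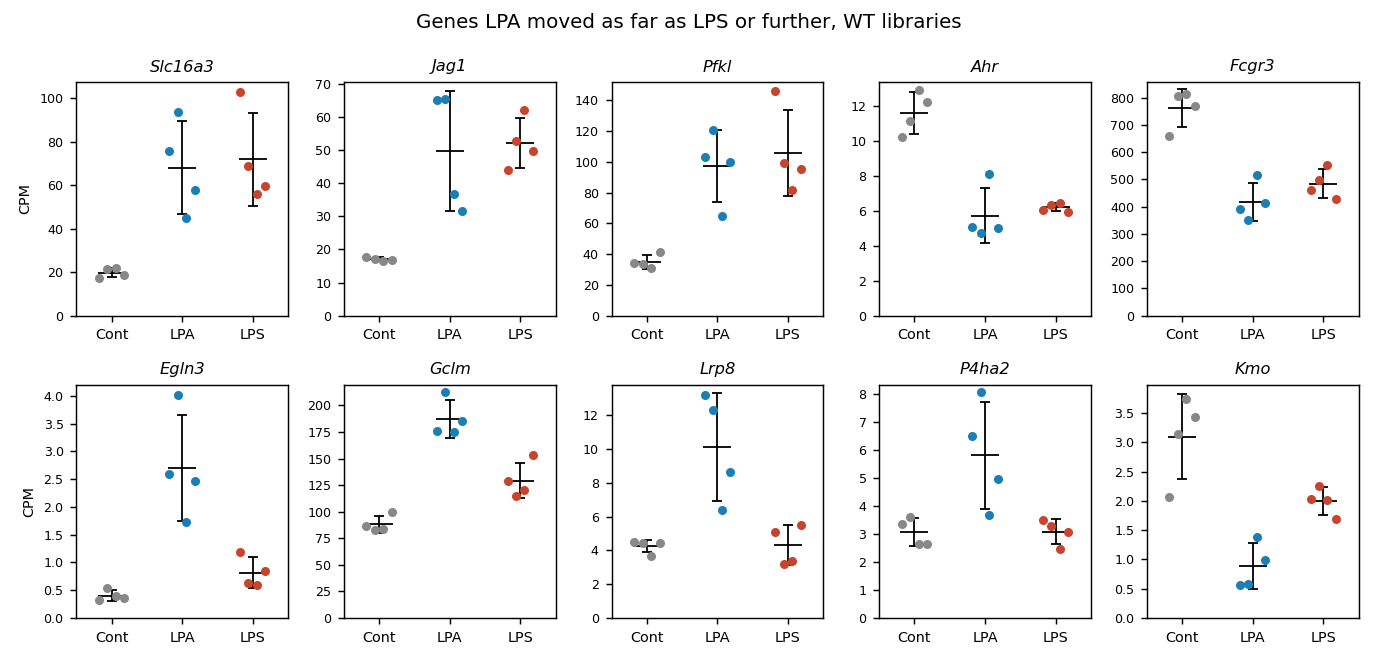
CPM in every library (points), group mean (line) and SD (error bar) in untreated, LPA and LPS wild-type cells for genes with matched changes (Slc16a3, Jag1, Pfkl, Ahr, Fcgr3) and for genes that LPA changed more (Egln3, Gclm, Lrp8, P4ha2, Kmo); each vertical axis starts at 0. LPA and LPS points overlap in the first 5 genes and separate in the last 5.

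Glycolytic enzymes and targets of the hypoxia-inducible factor HIF-1 were examined as 1 list. HIF-1 binds DNA at a short core, ACGTG, and its targets include glycolytic enzymes, the lactate exporter and the prolyl hydroxylases that mark HIF for destruction. The promoters of 4 such genes are shown because they carry that core and their transcripts met or exceeded the LPS level with LPA, and that of Hk2 because it was matched on both scales; a sixth, of the interferon-stimulated gene Rsad2, is shown for contrast. Each is the 250 bases before the transcription start in RefSeq (GRCm38.p6), read on the strand of the gene, with ACGTG on either strand (CACGT on the other) in capitals, or, in Rsad2, a match on the other strand of the interferon response element, searched as GAAA, any 2 bases and GAAA.
Slc16a3, chr11:120948817-120949066, plus strand: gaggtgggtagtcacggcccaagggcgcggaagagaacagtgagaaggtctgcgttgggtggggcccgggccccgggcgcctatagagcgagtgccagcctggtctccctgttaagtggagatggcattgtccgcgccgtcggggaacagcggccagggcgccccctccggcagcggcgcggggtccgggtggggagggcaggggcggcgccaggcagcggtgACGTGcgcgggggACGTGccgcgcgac
Egln3, chr12:54203875-54204124, minus strand: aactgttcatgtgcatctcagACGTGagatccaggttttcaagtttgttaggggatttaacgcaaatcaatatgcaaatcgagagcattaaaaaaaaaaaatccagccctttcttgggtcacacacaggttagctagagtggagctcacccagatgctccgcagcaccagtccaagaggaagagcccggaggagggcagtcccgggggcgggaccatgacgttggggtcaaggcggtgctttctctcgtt
Pgam1, chr19:41911621-41911870, plus strand: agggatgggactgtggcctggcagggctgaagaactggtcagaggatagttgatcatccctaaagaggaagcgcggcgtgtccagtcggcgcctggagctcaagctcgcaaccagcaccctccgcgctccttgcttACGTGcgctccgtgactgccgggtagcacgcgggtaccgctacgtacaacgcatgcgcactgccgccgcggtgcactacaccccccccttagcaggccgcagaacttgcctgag
Bnip3, chr7:138909507-138909756, minus strand: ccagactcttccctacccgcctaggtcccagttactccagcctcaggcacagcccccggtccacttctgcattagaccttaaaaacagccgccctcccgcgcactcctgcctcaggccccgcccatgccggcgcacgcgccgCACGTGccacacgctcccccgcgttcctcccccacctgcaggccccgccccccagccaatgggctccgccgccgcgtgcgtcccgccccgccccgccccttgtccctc
Hk2, chr6:82774455-82774704, minus strand: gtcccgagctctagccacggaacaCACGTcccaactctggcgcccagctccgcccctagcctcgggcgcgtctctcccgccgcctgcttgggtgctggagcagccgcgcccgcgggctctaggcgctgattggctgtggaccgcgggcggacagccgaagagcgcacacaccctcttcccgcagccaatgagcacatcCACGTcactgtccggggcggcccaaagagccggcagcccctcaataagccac
Rsad2, chr12:26456453-26456702, minus strand: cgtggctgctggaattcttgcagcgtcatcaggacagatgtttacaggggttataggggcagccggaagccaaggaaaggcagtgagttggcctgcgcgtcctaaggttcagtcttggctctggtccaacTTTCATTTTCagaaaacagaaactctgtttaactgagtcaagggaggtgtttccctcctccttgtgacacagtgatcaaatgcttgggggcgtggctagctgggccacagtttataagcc

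For Slc16a3 the start is the 1 listed in the RefSeq table, which lies inside the gene span given above. In Slc16a3 the 2 cores lie 27 to 23 and 14 to 10 bases before the start, and in Bnip3 a palindrome (CACGTG) gives overlapping matches on both strands. Of 9210 genes matched to the RefSeq promoter table, the 7355 with 1 listed start were searched. ACGTG was found in 22.4% of all those promoters, in 27.1% of the matched rises, in 28% of the stronger rises and in 22.5% of the rises with an opposite LPS fall. It was in 14 of the 21 promoters of the glycolysis and HIF-1 list (66.7%) and in 1 of 22 of the interferon-stimulated list (4.55%). The interferon response element showed the other pattern, at 2.99% of all promoters, 8.75% of the genes at least 2-fold higher with LPS, 2.27% of those at least 2-fold higher with LPA, and 12 of 22 interferon-stimulated genes (54.5%). The lists were chosen for known regulation, so these shares describe the lists; a match of letters is not a binding site.

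Of 33 measured glycolysis and HIF-1 genes, 14 were higher with LPA and 11 with LPS (41.1% and 37.8% of all genes), with a median difference of 0.17 beside 0.04 for all genes (0.67 and 0.54 under library totals). By class, 9 were stronger rises with LPA and 10 matched rises, 17 in either class, where 2.03% and 6.91% of all genes were in these classes; the number was 13 without LPA replicate 2 and 19 without WT LPS 1. Egln3 (chromosome 12, 54178981 to 54203874), the prolyl hydroxylase PHD3, was 0.327, 0.533, 0.396 and 0.351 CPM in untreated cells, 2.6, 4.02, 1.73 and 2.46 CPM with LPA and 1.19, 0.629, 0.598 and 0.845 CPM with LPS. Every LPA library lay above every LPS library, a 3.29-fold difference (log2 1.72 ± 0.28, edgeR adjusted p = 6.1e-06). Ankrd37, a HIF target of unknown function, was 1.98, 2.62, 1.31 and 1.91 CPM with LPA and 0.596, 0.851, 0.299 and 0.986 CPM with LPS, and no LPS change was called (-0.16 ± 0.28, edgeR adjusted p = 0.605). P4ha2, a collagen prolyl hydroxylase, was 6.51, 8.05, 3.67 and 4.97 CPM with LPA and 3.5, 3.29, 2.47 and 3.06 CPM with LPS, from 2.62 to 3.6 CPM untreated. These 3 genes, of which Egln3 and Ankrd37 lay below the level of the naming rule and were chosen after their values were seen, exceeded LPS on both scales. For Ankrd37 (-0.71) and P4ha2 (-0.54) an LPS fall was called under library totals.

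The core enzymes moved by less, and those named here other than Pgam1 were chosen after their values were seen. Triose phosphate isomerase (Tpi1) was 267, 285, 201 and 241 CPM with LPA and 202, 154, 151 and 163 CPM with LPS, with no LPS change called (-0.08 ± 0.10), and LPA exceeded LPS by 0.57 ± 0.10 (edgeR adjusted p = 2.3e-05). Bnip3, a mitochondrial receptor for mitophagy, was higher with LPA by 0.42 ± 0.13, and an LPS rise of Bnip3 was called without WT LPS 3 or 4 (0.01 to 0.33 over 12 fits). Phosphoglycerate mutase (Pgam1) was 61.2, 64.8, 40 and 48.3 CPM with LPA and 49.8, 43.4, 41.9 and 42.5 CPM with LPS, overlapping groups that differed by 0.27 ± 0.11 (edgeR adjusted p = 0.0255). That call on Pgam1 was lost in 5 of 12 fits, without WT LPA 1 or 2 or WT LPS 2, 3 or 4 (0.17 to 0.39 over the 12 fits). A fall with LPS was called under library totals for Tpi1 (-0.64) and Bnip3 (-0.33), and no LPS change for Pgam1 (-0.12). Gapdh differed by -0.02 ± 0.08, Ldha by 0.02 ± 0.10, Aldoa by -0.05 ± 0.07 and Eno1 by 0.17 ± 0.09, each after a rise with both stimuli of 0.37 to 0.54 on the log2 scale. A direct difference of Eno1 was called without WT LPS 1 or WT LPA 3 (0.11 to 0.28 over 12 fits), and with the replicate block (0.17). Under library totals these 4 rose with LPA (0.40 to 0.49) and not with LPS (-0.02 for Gapdh, -0.05 for Aldoa, -0.07 for Ldha, -0.18 for Eno1). Hexokinase 2 (Hk2) was 82.9, 95.7, 73.4 and 78.7 CPM with LPA and 118, 105, 107 and 97.4 CPM with LPS. Its difference of -0.37 ± 0.08 (interval -0.53 to -0.21) lay within 1.5-fold. Hk2 was nevertheless called higher with LPS (edgeR adjusted p = 1.4e-04), and its LPA and LPS libraries did not overlap. The difference of Hk2 was 0.13 under library totals.

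Other members were higher with LPS, or fell with LPS. Of the 11 members higher with LPS (14 with LPA), Adm differed most (-4.91 ± 0.43), with no LPA change called. Also higher with LPS were Pfkp (-1.39), Ak4 (-1.33), Slc2a1 (-1.09), P4ha1 (-0.78), Ndrg1 (-0.62), Pgk1 (-0.42), and the matched rises Hk2 (-0.37) and Ero1l (-0.26). Pfkfb3, which makes the allosteric activator of phosphofructokinase, was 71.4, 83, 72.9 and 87.3 CPM with LPA and 218, 210, 235 and 214 CPM with LPS, and Hk1 was 1.91-fold higher with LPS. Vegfa, the endothelial growth factor, was 109, 102, 103 and 80 CPM with LPA and 16.7, 20.8, 21.2 and 18 CPM with LPS, 5.14-fold higher with LPA (edgeR adjusted p = 2.2e-09). That difference came from a fall with LPS (-1.99 ± 0.21), as no LPA change of Vegfa was called (0.37 ± 0.20, edgeR adjusted p = 0.129). The fit with the replicate block did call that LPA change, at the same 0.37.

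Genes of the NRF2 pathway, which answers oxidative and electrophilic stress, were divided, where 41.1% of all genes were higher with LPA and 37.8% with LPS. Of 20 measured, 6 were higher with LPA (Gclm, Gclc, Nqo1, Osgin1, Taldo1 and Slc48a1) and 10 with LPS, with a median of -0.17, or 11 and 5 with a median of 0.33 under library totals. Gclm (chromosome 3, 122245487 to 122267215), the regulatory subunit of the enzyme that limits glutathione synthesis, was 86.7, 82.3, 83.9 and 99.8 CPM in untreated cells, 176, 213, 175 and 185 CPM with LPA and 129, 115, 120 and 153 CPM with LPS. All LPA libraries lay above all LPS libraries, and LPA exceeded LPS by 0.53 ± 0.13 (edgeR adjusted p = 6.1e-04); under library totals the LPS change of Gclm was 0.00. Slc7a11, the cystine importer, went the other way, at 37, 45.3, 23 and 29.3 CPM with LPA and 146, 123, 127 and 126 CPM with LPS (log2 -1.95 ± 0.22, edgeR adjusted p = 4.7e-08).

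Outside these lists, several genes rose with LPA with no LPS change called. Lrp8 (chromosome 4, 107802200 to 107876840), a receptor for reelin and apolipoprotein E, was 4.47, 4.42, 3.69 and 4.43 CPM in untreated cells, 13.2, 12.3, 6.37 and 8.65 CPM with LPA and 5.08, 3.22, 3.36 and 5.53 CPM with LPS. The LPA libraries stood above both other groups, 2.35-fold over LPS (edgeR adjusted p = 4.0e-06). Carmil1, a regulator of actin capping, was 17.3, 20.4, 16.1 and 13.1 CPM with LPA and 5.29, 6.88, 10.6 and 7.99 CPM with LPS. Tmem119, a transmembrane protein known as a microglial marker, exceeded LPS 2.29-fold and Gsta3, a glutathione transferase, 2.38-fold, both at under 5 CPM. Under library totals these 4 genes fell with LPS (-0.49 for Carmil1 to -0.86 for Gsta3). Tlr2, the receptor for bacterial lipoproteins, rose with both stimuli and was 551, 620, 418 and 477 CPM with LPA and 425, 412, 414 and 438 CPM with LPS, higher with LPA by 0.29 ± 0.09 (edgeR adjusted p = 0.00664). All LPA libraries but replicate 3 lay above the LPS range, the call was lost without WT LPA 2 (0.19), and under library totals the LPS change of Tlr2 was -0.19.

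Genes that fell more with LPA were led by Kmo. Kmo (chromosome 1, 175632193 to 175660853), an enzyme that breaks down kynurenine, was 2.07, 3.14, 3.74 and 3.43 CPM in untreated cells, 0.569, 0.579, 1.39 and 0.995 CPM with LPA and 2.03, 2.26, 2.02 and 1.69 CPM with LPS. All 4 LPA libraries lay below all LPS libraries, 2.28-fold (log2 -1.19 ± 0.27, edgeR adjusted p = 4.2e-04), and the direction held under library totals (-0.68). Its LPS fall (-0.63 ± 0.25) was not called without WT Cont 3, WT Cont 4 or WT LPS 4 (-0.78 to -0.53 over 12 fits). Ehd4, an endosomal membrane-remodelling ATPase, was 383, 372, 517 and 474 CPM with LPA and 504, 553, 632 and 571 CPM with LPS, with 1 LPA library inside the LPS range (-0.37 ± 0.08, edgeR adjusted p = 3.3e-04). Mertk, the receptor for engulfing apoptotic cells, differed by -0.25 ± 0.09 (edgeR adjusted p = 0.0199), which was called in 8 of 12 fits, not without WT LPA 1 or 2 or WT LPS 3 or 4 (-0.34 to -0.18). Under library totals both differences changed sign (0.14 for Ehd4 and 0.26 for Mertk). Ehd4 and Mertk also counted as matched falls on both scales, with differences within 1.5-fold.

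The inflammatory lists stood wholly or nearly on the LPS side. All 19 measured NF-kB target genes were higher with LPS (median log2 difference -1.69), as were all 15 pro-inflammatory cytokines (-3.10), all 35 interferon-stimulated genes (-1.73) and 18 of 20 chemokines (-2.98), where 37.8% of all genes were higher with LPS. Under library totals the counts were 19, 15, 34 and 17, with 3 chemokines higher with LPA. Members named below because few of a list stood on 1 side were chosen after their values were seen. LPA itself raised 17 of the NF-kB targets, 8 of the cytokines, 33 of the interferon-stimulated genes and 14 of the chemokines (23.5% of all genes rose with LPA and 40.6% with LPS), so for these the direct contrast was one of size. Tnf (chromosome 17, 35199367 to 35202007) was 195, 204, 78.5 and 150 CPM with LPA and 2184, 2068, 2200 and 1894 CPM with LPS, 13.3-fold higher with LPS (edgeR adjusted p = 6.9e-12). The costimulatory receptor gene Cd40 was 96.7, 108, 63.8 and 95.8 CPM with LPA and 1189, 1054, 1067 and 1048 CPM with LPS. Nfkbiz, which encodes an inducible nuclear IkB protein, was 90.4, 98.1, 91.6 and 124 CPM with LPA and 907, 860, 876 and 781 CPM with LPS. In all 3 genes even the lowest LPS library was several times the highest LPA library.

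Among chemokines and cytokines, Ccl4 was 32.3-fold, Ccl3 27.4-fold, Il27 20.9-fold and Ccl5 20.5-fold higher with LPS. Rsad2, an antiviral enzyme, was 953, 1042, 631 and 751 CPM with LPA and 5971, 6922, 9531 and 7299 CPM with LPS, and Ifih1, a sensor of viral RNA, was 5.64-fold higher with LPS. Enzymes of activated macrophages were of the same kind. Acod1, which makes itaconate, was 821, 943, 336 and 567 CPM with LPA and 9887, 9651, 10903 and 8873 CPM with LPS (14.7-fold), and Nos2, the inducible nitric oxide synthase, 28.1-fold higher with LPS. Hdc, histidine decarboxylase, was 13.8-fold higher with LPS. Of 14 measured enzymes of this list 10 were higher with LPS and 3 with LPA (Arg2, Ptgs1 and Asl), beside 37.8% and 41.1% of all genes.

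Feedback genes and the related lists below stood mostly on the LPS side on the TMM scale, where 41.1% of all genes were higher with LPA and 37.8% with LPS. Irak3, an inhibitor of Toll-like receptor signalling, was 75.7, 96.3, 75.9 and 87.9 CPM with LPA and 406, 348, 356 and 305 CPM with LPS, and Socs3, an inhibitor of cytokine signalling, was 17.1-fold higher with LPS. Of 20 Toll-like receptor and adaptor genes 14 were higher with LPS and 5 with LPA (Tlr2, Tlr4, Tlr13, Irak1 and Irak4), and of 12 SOCS and STAT genes 8 were higher with LPS and Stat6 and Socs5 with LPA. Immediate-early genes were higher with LPS in 16 of 22 and with LPA in 3 (Fos, Nr4a1 and Klf2), with Klf6 3.34-fold higher with LPS. MAP kinase feedback inhibitors were higher with LPS in 8 of 13 and with LPA in 2 (Dusp6 and Spred3). SRF and YAP targets, which follow the actin cytoskeleton, were higher with LPS in 10 of 15 and with LPA in 3 (Tpm1, Ajuba and Thbs1). The SRF and YAP counts became 4 and 5 under library totals, so their direction depended on the scaling.

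**Figure D4:**
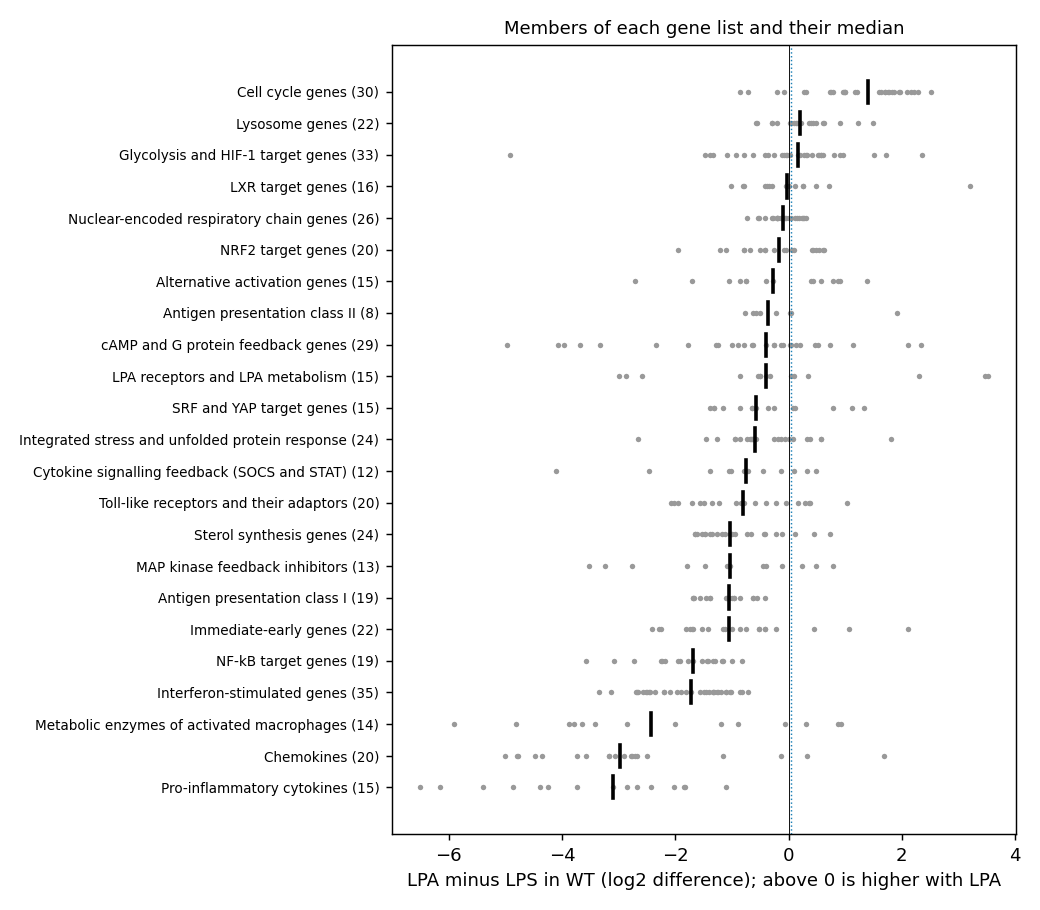
Log2 difference LPA minus LPS in wild-type cells for each measured member (points) and the median (bar) of each gene list other than cell type markers; the dotted line is the median of all genes, 0.04. The medians of the cytokine, chemokine, interferon-stimulated and NF-kB lists lie at -3.10, -2.98, -1.73 and -1.69, that of the glycolysis and HIF-1 list at 0.17 and that of cell cycle genes at 1.40.

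Lists of lipid genes were divided, where 41.1% of all genes were higher with LPA and 37.8% with LPS. Sterol synthesis genes were higher with LPS in 18 of 24 and with LPA in 2 (Ebp and Dhcr7; median -1.03, and -0.53 under library totals), though LPA raised 19 of the 24 over untreated cells. Insig1, the sterol sensor, was 114, 93.8, 56.8 and 68.6 CPM with LPA and 209, 197, 222 and 220 CPM with LPS, from 44.4 to 49.8 CPM, and Sc5d, a late enzyme of cholesterol synthesis, was 3.05-fold higher with LPS. LXR targets were mixed, 4 higher with LPA (Arl4c, Abca1, Smpdl3a and Mylip) and 6 with LPS of 16 (10 and 1 under library totals). Arl4c, a small GTPase, was 178, 156, 217 and 171 CPM with LPA and 15.7, 19.8, 19.7 and 22.9 CPM with LPS, and the cholesterol exporter gene Abca1 was 1.65-fold higher with LPA, having fallen with LPS (-0.64 ± 0.06) with no LPA change called (0.08 ± 0.06, edgeR adjusted p = 0.257).

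Of 15 measured genes of LPA receptors and LPA metabolism, 3 were higher with LPA (Lpar6, Lpar5 and Gpr35) and 9 with LPS, but 7 and 4 under library totals (median -0.40 and 0.11). The shares of all genes were 41.1% higher with LPA and 37.8% with LPS. Lpar6 (chromosome 14, 73237891 to 73240358) was 121, 126, 141 and 131 CPM in untreated cells, 81.6, 74.8, 139 and 78.3 CPM with LPA and 6.24, 8.55, 9.5 and 8.2 CPM with LPS. LPA replicate 3 remained in the untreated range, and all LPA libraries lay far above the LPS libraries, 11.5-fold (edgeR adjusted p = 2.3e-13). The fall of Lpar6 with LPA (-0.47 ± 0.15) was not called without WT LPA 1, 2 or 4 (-0.73 to -0.38 over 12 fits). Lpar5 was 12.5, 12, 22.3 and 19.7 CPM with LPA and 1.51, 1.26, 1.35 and 1.87 CPM with LPS, 11.1-fold higher with LPA. Gpr35 (chromosome 1, 92948052 to 92986391) was 2.78, 1.61, 2.53 and 1.34 CPM with LPA and 0.385, 0.296, 0.636 and 0.352 CPM with LPS, 4.93-fold higher with LPA (edgeR adjusted p = 5.9e-07).

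Lpar1 (chromosome 4, 58435252 to 58554027) ran opposite, at 3.88, 5.22, 4.01 and 3.36 CPM in untreated cells, 10.8, 13.1, 5.84 and 8.98 CPM with LPA and 61.1, 56.1, 58.6 and 56.4 CPM with LPS. Both stimuli raised it, and LPS exceeded LPA 5.98-fold (edgeR adjusted p = 4.9e-12). Plpp1, a membrane phosphatase that dephosphorylates LPA, was 4.65, 4.63, 2.75 and 4.2 CPM with LPA and 38.5, 33, 32.1 and 25.9 CPM with LPS, from 1.21 to 1.99 CPM. After 4 h, LPS-treated cells thus held less Lpar5, Lpar6 and Gpr35 and more Lpar1 and Plpp1 transcript than LPA-treated cells, and these directions held under library totals. Among other receptor and feedback genes of the cAMP and G protein pathways 16 of 29 were higher with LPS and 5 with LPA (12 and 12 under library totals), beside 37.8% and 41.1% of all genes. The adenosine receptor gene Adora2a was 31.3-fold and the formyl peptide receptor gene Fpr2 12.9-fold higher with LPS, and both also rose with LPA (2.15 ± 0.25 and 1.92 ± 0.18).

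On the LPA side stood the cell cycle genes, which LPS lowered. Of 30 measured, 23 were higher with LPA and 1 with LPS (Ccne1), with a median of 1.40 (1.92 under library totals) where 41.1% of all genes were higher with LPA; without LPA replicate 3 the count was 18. E2f1, a transcription factor of S phase entry, was 25.2, 24.1, 27.7 and 27.3 CPM with LPA and 8.34, 7.77, 6.95 and 8.7 CPM with LPS, from 29.8 to 33.2 CPM, and Mcm2, a subunit of the replicative helicase, was 3.9-fold higher with LPA. LPS lowered 24 of the 30 and LPA 2. In these bulk libraries fewer cells of a kind and less RNA per cell cannot be told apart. Of 22 lysosome genes 14 were higher with LPA, among them the cholesterol transporter gene Npc1 (2.33-fold), and 5 with LPS (20 and 0 under library totals). Among all genes 41.1% were higher with LPA and 37.8% with LPS, and the remaining lists were divided. Nuclear-encoded respiratory chain genes were higher with LPA in 6 and with LPS in 12 of 26 (22 and 1 under library totals), stress response genes in 3 (Pdia4, Vldlr and Shmt2) and 12 of 24 (10 and 6), and alternative activation genes in 5 (Stab1, Mrc1, Pparg, Clec10a and Cd36) and 6 of 15 (6 and 4).

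Both antigen presentation lists stood mostly on the LPS side, where 37.8% of all genes were higher with LPS and 41.1% with LPA. All 19 measured class I genes were higher with LPS (median -1.06; 15 called under library totals), among them the peptide transporter gene Tap2 (3.18-fold). Of 8 class II genes 5 were higher with LPS (Cd74, H2-Aa, H2-Ab1, H2-Eb1 and H2-DMb1) and Ciita, their master regulator, was higher with LPA (4 higher with LPA and 1 with LPS under library totals). Ciita was 11.1, 8.83, 24 and 17.2 CPM with LPA and 3.36, 3.59, 3.78 and 5.42 CPM with LPS, from 30.9 to 38.4 CPM, so both stimuli lowered it and LPS lowered it more (direct 1.91 ± 0.27, edgeR adjusted p = 1.4e-06). Cd74, the invariant chain, was 1.55-fold higher with LPS (log2 -0.63 ± 0.09, and -0.13 under library totals).

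The cells carried the markers of their label: all 24 macrophage identity genes were measured, with sums of 44427 to 50918 CPM with LPA and 58435 to 60558 CPM with LPS. Of these 24, 7 were higher with LPA and 13 with LPS (14 and 8 under library totals), beside 41.1% and 37.8% of all genes. The lineage regulator Cebpa was on the LPA side, at 79.3, 66.6, 109 and 96 CPM with LPA and 10.8, 10.2, 9.05 and 11.6 CPM with LPS. Of the markers of other cells, 2 of 13 T, NK and B cell genes were measured (Cd4 and Cd79b, sums of 60.7 to 72.9 CPM with LPA and 30.2 to 39.1 CPM with LPS), 3 of 11 dendritic cell genes (with Kmo, described above, among them; 28.5 to 68.7 and 33.6 to 53.4 CPM) and 14 of 16 neutrophil genes (420 to 465 and 644 to 851 CPM). Of the 14 neutrophil genes Mmp8, Mpo and Elane were higher with LPA (1 gene without WT LPA 1) and 4 with LPS (Csf3r, Mmp9, Lcn2 and Camp), but 7 and 4 under library totals. Of 9 mast cell genes Hdc was the 1 measured, of 11 erythroid and megakaryocyte genes Pf4 and Ppbp (118 to 188 and 159 to 186 CPM), and of 10 osteoclast genes 7 (252 to 305 and 283 to 335 CPM). Stromal and endothelial genes were measured in 7 of 11 and summed to 57 to 72.4 CPM with LPA and 179 to 220 CPM with LPS; Kdr, a VEGF receptor, made up most of the latter at 182, 158, 163 and 168 CPM. The part of other cell types in the results above was not tested.

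In KO cells the same contrast shares no library with wild type, and the classes had been formed from wild-type values alone. In KO cells 9559 genes differed between LPA and LPS (82.5%), 4964 higher with LPA (42.8%) and 4595 higher with LPS (39.6%), while LPA against untreated KO cells changed 304 genes (2.62%). Of the 102 genes with an LPA rise and an LPS fall in wild type, 84 were higher with LPA than with LPS in KO as well (82.4%, median 0.38 in KO and 0.72 in wild type). The LPA rise itself was called in 24 of them (23.5%, beside 1.56% of all genes that rose with LPA in KO) and the LPS fall in 80 (78.4%, beside 43% of all genes). Of the 102 with the reverse pattern 82 were lower with LPA in KO (80.4%, median -0.43 against -0.74), while the LPA fall was called in 12 (11.8%, beside 1.06% of all genes) and the LPS rise in 70 (68.6%, beside 39.3%). Olfml3 was among the former (KO direct difference 3.10 and LPA change 2.24, edgeR adjusted p = 2.7e-10 and 1.0e-05), as were Fos (1.95 and 0.71), Cgnl1 (2.55 and 0.96), Chst3 (3.01 and 1.13) and Adam8 (1.40 and 0.60). Cd276 was also higher with LPA than with LPS in KO (1.07), but no LPA change was called (0.39, edgeR adjusted p = 0.306). For Stat3 the KO direct difference was -0.89 with no LPA change called (-0.03), and for St3gal4 -0.63 with none called (-0.13).

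Most genes with matched responses differed between the stimuli in KO cells, as did 82.5% of all genes. Of the 801 matched rises 740 were higher with LPS in KO (92.4%, beside 39.6% of all genes), where 497 had been called in wild type within the margin. Their median difference was -0.49 in KO against -0.22 in wild type. LPS raised 766 of them in KO (95.6%, beside 39.3% of all genes) and LPA 22 (2.75%, beside 1.56%). Of the 505 matched falls 462 were higher with LPA in KO (91.5%, beside 42.8% of all genes, median 0.43 against 0.18). An LPS fall was called in 482 of them (95.4%, beside 43% of all genes) and an LPA fall in 10 (1.98%, beside 1.06%). Slc16a3 differed by -1.08 in KO (edgeR adjusted p = 4.9e-05), Jag1 by -0.92, Pfkl by -1.28, Srxn1 by -1.01 and Col19a1 by -1.88, and among falls Ahr by 1.29 and Fcgr3 by 0.82. The matching rule itself required a small difference in wild type, so a larger one in KO is a description. A change with LPA in KO was called for Slc16a3 (0.83, edgeR adjusted p = 0.0344) and Jag1 (0.85, edgeR adjusted p = 0.0141) and not for Pfkl (0.59), Srxn1 (0.38), Col19a1 (-0.13), Ahr (0.02) or Fcgr3 (-0.04). Tested as an interaction, the direct difference itself depended on genotype in 2736 genes (23.6%; 13.7% higher and 9.93% lower in wild type, 3.3% at least 2-fold). These included Slc16a3 (wild type minus KO, 1.00 ± 0.28, edgeR adjusted p = 0.0133), Col19a1 (1.64 ± 0.20, edgeR adjusted p = 1.2e-05), Egln3 (2.02 ± 0.45) and Ahr (-1.41 ± 0.21), and not Olfml3 (-0.14 ± 0.36), Fos (0.16 ± 0.15) or Cgnl1 (0.45 ± 0.20, edgeR adjusted p = 0.0963). By class the direct difference was higher in wild type in 34 of the 102 rises with an opposite LPS fall (33.3%, lower in 1). It was higher in 44.1% of matched rises (lower in 2 genes), beside 13.7% of all genes. The difference was lower in wild type in 44 of the 102 falls with an opposite LPS rise (43.1%, higher in 1). It was lower in 37.8% of matched falls (higher in 0), beside 9.93% of all genes. The wild-type values enter both the classes and this interaction, so it is not independent of how the genes were chosen. Genotype went with sequencing lanes and depth, so within this contrast the 2 cannot be told apart.

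**Figure D5:**
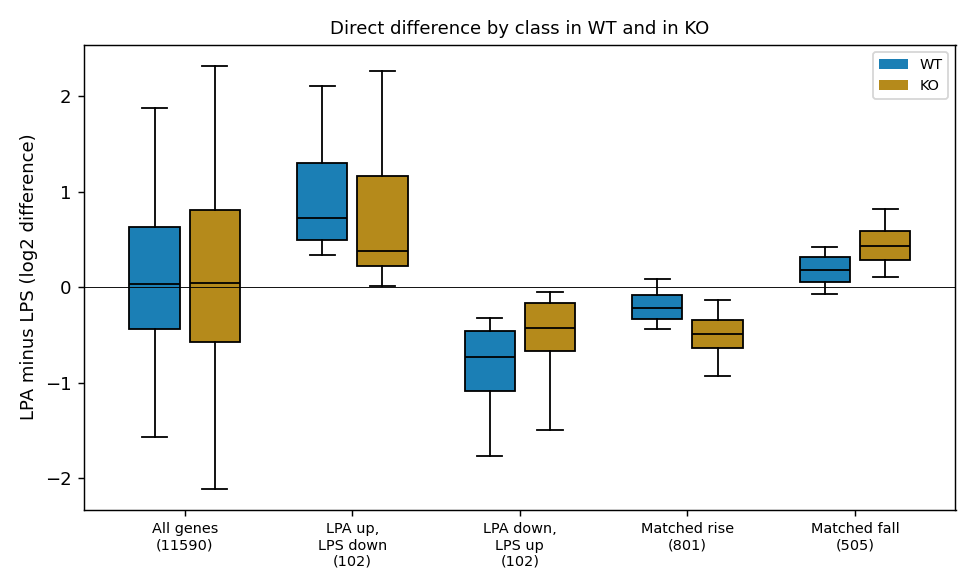
Direct log2 difference LPA minus LPS by gene class in wild-type (blue) and KO (ochre) cells; boxes span the quartiles with the median as a line, whiskers the 5th to 95th percentile, and the number of genes is given under each class. The opposite classes keep their sides in KO with medians of 0.38 and -0.43, and the matched classes move away from 0 to medians of -0.49 and 0.43.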

How the data were processed

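The 24 libraries were bulk RNA-seq of macrophages, and the deposited values are raw counts per gene made by the authors. Per the submitters' processing notes, STAR 2.5.2a and the mm10 build were used; no source used here gives the counting tool, the annotation or the strand setting, so overlapping and antisense genes may share reads. All 11590 genes in the table were tested. The fit was edgeR 4.0.16 (quasi-likelihood F test, TMM, robust, R 4.3.3) on 6 group means of the 24 libraries, with 18 residual degrees of freedom and Benjamini-Hochberg adjustment. CPM, log2 differences, standard errors and 95% intervals were computed here from the counts. The test was checked on simulated data for LPA against LPS (11590 genes): 46% of 50 genes changed by 0.3 on the log2 scale were called, 96% of 50 changed by 1, and 4 of 11390 unchanged genes. With so few changed genes the adjusted threshold was stricter than in the real contrast, where 9148 genes were called.

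Named genes with an official symbol were the 10 largest direct differences each way (at least 2 CPM, libraries not overlapping), up to 6 per class, up to 4 per list of the 31 lists, and Gpr35 and Tnf; some of them are not described. The members and lists were chosen with earlier results of these data known. Replicate numbers paired LPA with untreated wild-type libraries (correlations of same-numbered deviations 0.21 to 0.63, all 4 above 0.1, other numbers at most 0.32). Pairing was weaker for LPA with LPS (0.07 to 0.30, 3 of 4 above 0.1, other numbers at most 0.11). For untreated with LPS it was 0.09 to 0.26 (3 of 4 above 0.1, other numbers at most 0.19). The main fit did not use the numbers, and the replicate block used them over the 12 wild-type libraries. Alternatives were DESeq2 1.42.0, library totals, a filter, thresholds, a replicate block and leaving out each library.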

Additional observations from a re-analysis of the deposited data

Results flagged for a closer look

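Of 291 groups of 4 libraries (97 genes in 3 wild-type groups), 12 had a highest or lowest library far from the other 3, where chance gives about 1 in 20. With LPA replicate 3 these were Ahr (8.1 CPM, highest), Abca1 (1660 CPM, highest) and Lpar6 (139 CPM, highest), and with LPA replicate 2 Tmem119 (3.6 CPM, highest). With LPS replicate 4 they were Fcgr2b (520 CPM, lowest) and Fpr2 (533 CPM, lowest), with LPS replicate 3 Stat3 (452 CPM, highest) and with LPS replicate 1 Cd40 (1189 CPM, highest). Among untreated libraries they were Lrp8 (3.69 CPM, lowest) and Mcm2 (11 CPM, highest) in replicate 3, Ankrd37 (1 CPM, highest) in replicate 4 and Ciita (30.9 CPM, lowest) in replicate 1.

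In 57 of the 97 genes the LPA minus LPS difference depended on genotype (edgeR interaction, adjusted p below 0.05). Among all genes it did in 23.6% (13.7% higher and 9.93% lower in wild type). The 97 genes were chosen largely by wild-type values that enter this interaction, so their share cannot be compared with that of all genes. The values that follow are the wild-type difference minus the KO difference on the log2 scale. It was higher in 43 genes. Among inflammatory genes it was 2.87 for Acod1, 2.38 for Tnf, 2.3 for Lipg, 1.74 for Rsad2, 1.70 for Cd40, 1.59 for Nos2, 1.30 for Ccl4, 1.22 for Il27 and Nfkbiz, 1.10 for Ifih1, 0.96 for Irak3, 0.93 for Ccl5, 0.83 for Socs3, 0.82 for Ccl3, 0.73 for Hdc and 0.47 for Tap2. Among receptors and lipid genes it was 2.22 for Fpr2, 1.83 for Kdr, 1.74 for Lpar1, 1.53 for Adora2a, 1.14 for Plpp1, 1.09 for Tlr2, 1.06 for Insig1 and 0.89 for Sc5d. Among glycolysis and HIF-1 genes it was 2.02 for Egln3, 1.17 for Pfkl, 1.06 for P4ha2, 1.00 for Slc16a3, 0.52 for Hk2, 0.50 for Pgam1, 0.45 for Tpi1, 0.41 for Eno1, 0.38 for Gapdh, 0.37 for Aldoa and 0.32 for Pfkfb3. Among redox and other genes it was 1.96 for Slc7a11, 1.64 for Col19a1, 1.13 for Sdc1, 1.10 for Srxn1, 1.02 for Gsta3, 0.96 for Gclm, 0.87 for Pf4 and 0.86 for Jag1.

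It was lower in 14 genes. These were Kmo (-1.95), Cxcr4 (-1.48), Ahr (-1.41), Fcgr3 (-1.03), Arhgap15 (-0.86), Arl4c (-0.81), Mertk (-0.70), Ehd4 (-0.68), Frmd6 (-0.68), St3gal4 (-0.66), Selenop (-0.61), Il4ra (-0.55), Atp10d (-0.54) and Stat3 (-0.49). Genotype went with sequencing lanes and depth, and these cannot be told apart.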

How the results depend on the processing

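Scaling had the widest reach. Under library totals alone LPA was higher in 8087 and lower in 1979 genes, LPS raised 2387 and lowered 7847, and in KO LPA was higher in 7667 and lower in 2438. Stronger rises then numbered 584 (38 with an LPS rise, 264 with no LPS call, 282 with an LPS fall) and stronger falls 74 (3, 43 and 28). Differences between LPA and LPS that changed sign and were called on at least 1 of the scales were those of Jag1 (0.43), Pfkl (0.38), Sdc1 (0.43), Pf4 (0.36), Ahr (0.39), Selenop (0.45), Ehd4 (0.14), Mertk (0.26), Gapdh (0.48), Aldoa (0.45) and Hk2 (0.13); those of Slc16a3 (0.41), Col19a1 (0.26), Fcgr3 (0.29) and Arhgap15 (0.26) changed sign with no call on either. LPS changes that did so were those of Frmd6 (-0.03), Il4ra (-0.14), Gclm (0.00), Tlr2 (-0.19), Pgam1 (-0.12), Lrp8 (-0.53), Carmil1 (-0.49), P4ha2 (-0.54), Bnip3 (-0.33), Ldha (-0.07), Gapdh (-0.02), Aldoa (-0.05), Eno1 (-0.18) and Cd74 (-0.09). Of 5917 alternative values for single genes, 52 lost and 28 gained the call, and 25 changed sign with a call on at least 1 side of the comparison, all of these under library totals; the other 5812 include sign changes of differences called on neither side; beyond the scaling itself the cause was not tested.

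With only the 12 wild-type libraries, falls shared by both but stronger with LPA numbered 5. With the replicate block 9303 genes differed between LPA and LPS, such rises numbered 26 and falls 18, and matched falls of at least 1.5-fold 34. The block also called the LPA change of Vegfa and Mcm2 and the direct differences of Fcgr3, Arhgap15 and Eno1, and took neutrophil markers from 3 and 4 to 5 and 7 and cell cycle genes higher with LPS from 1 to 2. At an adjusted p of 0.01 stronger rises numbered 121 (3, 74 and 44), stronger falls 115 (3, 69 and 43), matched rises 462 and matched falls 272. With the smaller margin matched rises and falls numbered 261 and 208 (7 and 2 at least 1.5-fold), and with 2-fold 1436 and 970 (120 and 76). Leaving out 1 library gave 153 to 349 stronger rises (5 to 34, 77 to 179 and 63 to 136), 142 to 345 stronger falls (5 to 34, 69 to 146 and 65 to 165), 497 to 1075 matched rises (28 to 82 at least 1.5-fold) and 305 to 685 matched falls (13 to 42). LPA changed 247 to 516 genes at least 2-fold. In the 100 bases before the start ACGTG was in 11.5% of all promoters, 16% of matched rises, 17.4% of stronger rises and 42.9% of the glycolysis and HIF-1 list, and the interferon response element in 1.1% of all, 5.17% of genes at least 2-fold higher with LPS and 27.3% of interferon-stimulated genes. DESeq2 shared 217 of 235 stronger rises and 230 of 233 stronger falls. Simulated differences of 0.3 were missed in over 50% of genes. In that simulation 11390 of 11590 genes were unchanged, which makes the adjusted threshold stricter than in the data. The share of small differences missed in the real contrast was therefore not measured.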
